A study of Rattus norvegicus with 16 samples.

Results

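Cut axons were set against saline-treated axons on the side of the lesion, in the rat pontine nuclei, where the cell bodies of those axons lie. The difference is taken over 6 of the 16 Affymetrix arrays of the study, chosen by their titles: transection on days 4, 10 and 37 and saline on the same 3 days, all from the lesion side. Each array held biotin-labelled RNA of 1 condition, so a day was matched to a day and the 3 days stood in for replicates. The remaining arrays were 3 lesion-side arrays after lysolecithin, a lipid that strips myelin (days 4, 10 and 37), 6 from the contralateral pontine nuclei (days 10 and 37 of each intervention) and 1 labelled as healthy control. The last 7 are called the control arrays below. The 3 lysolecithin arrays entered the fit together with the 6, to estimate the spread. The groups differ only in the intervention and the day as far as the labels go, which give no strain, sex or age, no site of the injury along the axon, and not how many animals an array stands for. Every p-value therefore measures the spread between these arrays, which may be technical and which holds differences in how the interventions act on different days.

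The pontine nuclei are cell groups of the ventral brainstem whose glutamatergic neurons send mossy fibres to the cerebellum. When an axon is cut, signals carried back along it reach the cell body and switch on transcription factors such as Jun and Atf3, and with them a programme of genes for stress, neuropeptides and axon growth that has been studied most in peripheral sensory and motor neurons. Genes of the mature neuron, such as those for neurofilaments and synaptic proteins, are often lowered in the same cells. Around the cell bodies, microglia and astrocytes can respond as well.

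The tissue was checked by markers chosen for its cell types. All 4 neuronal markers on the array (Snap25, Syt1, Nefl and Gap43) were called Present on the 6 arrays, and their summed signal was 20258 to 24791 after saline and 19868 to 22237 after transection. No probe set named Slc17a6 or Slc17a7, the vesicular glutamate transporters of projection neurons, was used here, so the glutamatergic identity was not checked. The 5 oligodendrocyte markers summed to 53195 to 57872 and 54479 to 58430. The 5 astrocyte markers summed to 24170 to 26581 and 23529 to 28201. Of 8 microglial and macrophage markers 6 were on the array and 4 were Present (Aif1, C1qb, Cd53 and Lgals3). The summed signal of the 6 did not overlap between the groups, although Aif1 and C1qb taken singly did, with sums of 2394 to 3359 after saline, 3485 to 4650 after transection and 1990 to 6677 on the control arrays, while Csf1r and Itgam were Present on none of the 6. None of 5 monoaminergic markers was Present on any of the 6. Of the choroid plexus markers Ttr was Present on none and Kl on 1 saline array. Of the motor neuron markers Chat and Prph were Present on none, Slc18a3 on 1 saline array and Calca on 1 saline and 2 transection arrays. The share of probe sets called Present was 46.9% to 47.1% after saline and 42.6% to 46.2% after transection. For beta-actin the signal of the 3′ probe set over that of the 5′ one, a ratio that rises as RNA degrades, was 1.68, 1.41 and 1.43 on days 4, 10 and 37 after saline and 1.42, 1.08 and 1.07 after transection, lower after transection on each day. The same ratio of GAPDH was 1.16, 1.09 and 1.16 against 1.07, 1.19 and 1.10. The part of the actin ratio in the results below was tested only by adding it to the fit as a covariate.

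The deposited values are MAS5 signals, a linear intensity per probe set with a call of Present, Marginal or Absent, and differences are on the scale log2(signal + 16), which understates the change of dim probe sets. The test took in probe sets with 3 or more Present calls among the 16 arrays. Of these 4413, 24 rose and 8 fell after transection (limma with intervention and day as terms, Benjamini-Hochberg adjusted p under 0.05), which is 0.544% and 0.181% of those tested and 0.725% together. They stand for 16 named genes that rose and 6 that fell, plus 3 probe sets without a symbol. By the rule for naming, each kept its direction on 3 of 3 days, which 19.7% of all tested probe sets did upward and 17.7% downward. The 16 were the injury transcription factors and stress genes Jun, Atf3 and Gadd45a, the peptide precursors Trh, Adcyap1 and Avp, the injury-induced Ecel1, Sprr1a and Hspb1, the immune genes C3 and Cd74, the signalling genes Plcd4, Gnai2 and Gnb1, the elongation factor Eef2 and 1 probe set of Kctd13. The 6 that fell were Ina, Sncb, Matk, Cited2, Iqsec1 and Ndufb8. The median log2 difference over all tested probe sets was 0.00 and 50.6% were higher. At an unadjusted p under 0.05 there were 748 (16.9%), with 401 higher (9.09%) and 347 lower (7.86%). The count of 32 became 0 with limma when the saline day 4, saline day 10 or lysolecithin day 4 array was left out (612, 511 and 752 at an unadjusted p under 0.05), 1 without transection day 10, 5 without transection day 4 and 7 without lysolecithin day 10, and it was 55 and 56 without the day 37 array of transection or of saline. It was 11, all lower, with the actin ratio as a covariate, where none of the 22 named genes passed although the log2 differences of Trh, Adcyap1, Ecel1 and Jun were larger (3.44, 3.11, 2.45 and 2.33), those of Plcd4 and Gnai2 were smaller (0.23 and 0.06) and those of Cd74 and Avp turned sign (-0.51 and -0.0715). It was 4, all higher, with the 6 transection and saline arrays alone. It was 0 without the day term (571 at an unadjusted p under 0.05) and 0 without the intensity trend or the detection filter, so membership of this list depends on the fit.

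The transcription factors and the damage gene are described first. Jun, a component of the AP-1 dimer, had signals of 495, 527 and 534 on days 4, 10 and 37 after saline (probe set rc_AI175959_at) and of 1462, 1512 and 699.5 after transection. All 3 transection arrays lay above all 3 saline arrays and above all 7 control arrays, whose range was 441 to 599. The rise was 2.20-fold (log2 difference 1.14, SE 0.20; limma adjusted p = 0.0358), and a further probe set of Jun (rc_AA945867_at) rose by 1.39 on the log2 scale (limma adjusted p = 0.0395). Atf3, a CREB-family factor that pairs with Jun, stood at 280, 291 and 297 after saline and at 1898, 2520 and 386 after transection. On day 37 it was nearer to saline than to its own earlier days, and inside the control range of 211 to 481. Its rise over the 3 days was 4.09-fold (SE of log2 0.37; limma adjusted p = 0.0358). Gadd45a, which acts in growth arrest and DNA damage, gave 450, 558 and 700 after saline and 2137, 3488 and 868 after transection (L32591mRNA_g_at). The highest saline and lowest transection arrays, both of day 37, came close without overlapping, and all 3 transection values exceeded the control maximum of 847. It rose 3.26-fold (SE of log2 0.33; limma adjusted p = 0.0421). The other 3 probe sets of Gadd45a differed by 1.94, 1.22 and 0.84 and did not pass (limma adjusted p 0.0741, 0.181 and 0.432).

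Neuropeptide precursors were among the genes with the largest folds. Trh encodes the precursor of thyrotropin-releasing hormone. Its signals were 726, 605.5 and 414 after saline and 4829, 5639 and 818 after transection (M36317_s_at). Days 4 and 10 after transection were far above every other array of the lesion side, while day 37 lay inside the control range of 379 to 1394. The rise was 4.86-fold (log2 difference 2.28, SE 0.32; limma adjusted p = 0.0315), and the second probe set, M23643cds_s_at, rose by 1.61 (limma adjusted p = 0.0338). Adcyap1 encodes PACAP, a peptide that is induced in many injured neurons. It had 780, 785 and 584 after saline and 3320, 4236 and 906 after transection (rc_AI228407_s_at). No array overlapped between the groups, though transection day 37 was within the controls (546 to 938). It rose 3.24-fold (SE of log2 0.26; limma adjusted p = 0.0315), and 2 more probe sets rose by 1.48 and 0.66 (limma adjusted p 0.0358 and 0.0457). Avp, the vasopressin precursor, behaved otherwise over time, with 226, 298 and 286 after saline and 383, 613 and 626 after transection (M25646_at). Here all 3 saline arrays lay under the control range of 300 to 854 and all 3 transection arrays inside it, the day 4 one being called Absent. The log2 difference was 0.94 (SE 0.18; limma adjusted p = 0.0427), and the other probe set of Avp (M64785_g_at) differed by -0.27 (limma adjusted p = 0.588). With the actin ratio as a covariate the difference of M25646_at was -0.0715.

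**Figure D1:**
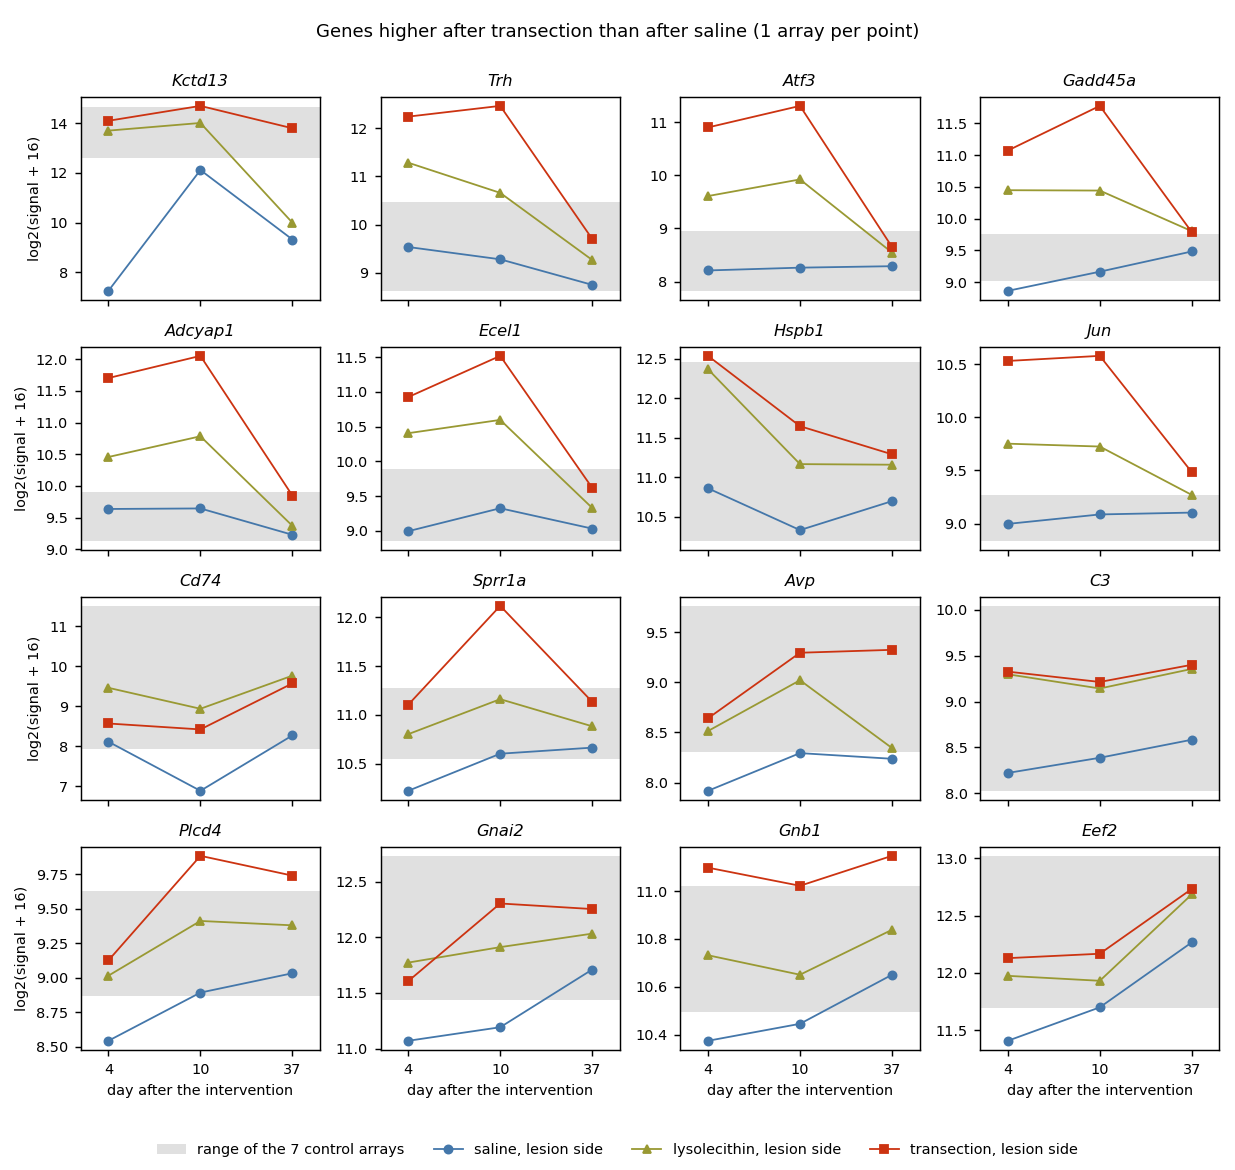
Levels as log2(signal + 16) of the 16 genes that rose, by day, for the lesion-side arrays after saline, lysolecithin and transection. Each point is 1 array, days are spaced equally and the grey band is the range of the 7 control arrays. Trh reaches signals of 4829 and 5639 on days 4 and 10 after transection and 818 on day 37, while C3 is as high on day 37 as before.

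Proteins that injured neurons are known to induce formed another group. Ecel1, a membrane peptidase of damaged neurons, went from 495, 626 and 508 after saline to 1928, 2916 and 771 after transection (Y16188_at). The groups were apart, and 2 of the 3 transection arrays exceeded the control maximum of 938. This was a 2.97-fold rise (SE of log2 0.25; limma adjusted p = 0.0315). Sprr1a, a small proline-rich protein that promotes axon outgrowth in rodent sensory neurons, had 1180, 1540 and 1609 after saline and 2186, 4428 and 2232 after transection (L46593cds_at). Only the day 10 value stood above the controls (1486 to 2463). The rise was 1.94-fold (limma adjusted p = 0.0358), and the second probe set rose by 1.47 (limma adjusted p = 0.0373). Hspb1, the small heat shock protein Hsp27, had 1843, 1273 and 1645 after saline and 5918, 3188 and 2488 after transection (rc_AA998683_g_at). All transection arrays exceeded all saline arrays, yet 5599 was measured on the contralateral array of transection day 37. Transection minus saline was -0.41 when each lesion-side array was taken relative to its contralateral array on days 10 and 37. The log2 difference was 1.19 (SE 0.19; limma adjusted p = 0.0315), against 0.81, 0.40 and 0.27 for the 3 other probe sets, none of which passed (limma adjusted p 0.0741, 0.391 and 0.353).

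Motifs, among them those bound by Jun and Atf3, were searched around the start of transcription in all 19 named genes with an entry. The window is shown for the 4 genes of these 3 groups with the largest rises among those with an entry, and for Sprr1a. Sprr1a was added outside that order, since Hspb1 rose more and is not shown, and it is the only gene shown with AP-1 matches. The windows are 300 bases long, from 250 before to 50 after the start, read 5′ to 3′ on the gene's strand, from RefSeq on build GRCr8. Capitals mark matches, on either strand, to the AP-1 site TGANTCA, the core TGACGT of the cAMP response element and the TATA box TATAAA. The positions are chr4:126301713-126302012 for Trh, chr9:120556424-120556723 for Adcyap1, chr9:95274523-95274822 for Ecel1, chr2:180752576-180752875 for Sprr1a and chr4:97486750-97487049 for Gadd45a, each on the minus strand.
Trh: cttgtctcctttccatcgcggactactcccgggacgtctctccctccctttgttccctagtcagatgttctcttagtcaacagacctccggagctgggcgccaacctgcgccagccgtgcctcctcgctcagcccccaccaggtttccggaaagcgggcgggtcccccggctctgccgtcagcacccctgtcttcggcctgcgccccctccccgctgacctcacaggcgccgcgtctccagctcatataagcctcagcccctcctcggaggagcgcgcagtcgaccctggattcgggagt
Adcyap1: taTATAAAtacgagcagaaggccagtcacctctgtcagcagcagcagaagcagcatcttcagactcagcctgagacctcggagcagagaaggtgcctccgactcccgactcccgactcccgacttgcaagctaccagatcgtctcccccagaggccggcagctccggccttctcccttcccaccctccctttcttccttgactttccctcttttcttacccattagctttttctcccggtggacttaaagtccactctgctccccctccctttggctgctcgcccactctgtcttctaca
Ecel1: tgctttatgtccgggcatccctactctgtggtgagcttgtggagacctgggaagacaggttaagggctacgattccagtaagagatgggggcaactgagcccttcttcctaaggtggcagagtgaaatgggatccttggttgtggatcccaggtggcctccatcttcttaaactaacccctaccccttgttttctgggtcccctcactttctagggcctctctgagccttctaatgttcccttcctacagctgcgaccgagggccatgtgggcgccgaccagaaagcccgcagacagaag
Sprr1a: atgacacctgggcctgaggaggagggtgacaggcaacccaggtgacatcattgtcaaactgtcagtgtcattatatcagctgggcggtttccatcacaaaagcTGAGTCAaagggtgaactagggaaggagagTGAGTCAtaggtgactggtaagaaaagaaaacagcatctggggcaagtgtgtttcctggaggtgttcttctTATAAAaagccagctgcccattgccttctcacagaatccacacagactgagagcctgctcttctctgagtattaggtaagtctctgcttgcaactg
Gadd45a: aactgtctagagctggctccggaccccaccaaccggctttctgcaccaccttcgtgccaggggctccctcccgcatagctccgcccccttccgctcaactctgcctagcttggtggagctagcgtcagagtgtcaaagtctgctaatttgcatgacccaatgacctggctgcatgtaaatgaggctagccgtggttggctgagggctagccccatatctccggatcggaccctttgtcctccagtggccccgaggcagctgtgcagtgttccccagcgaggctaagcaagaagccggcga
Sprr1a held 2 AP-1 matches, at -147 and -117 from the start, and a TATAAA match at -46. Adcyap1 held a TATAAA match at -248. No match lay in these letters for Trh, Ecel1 and Gadd45a. Of the 16 genes that rose, 13 had a window. Among these, AP-1 matches were found in 2 (Sprr1a and Avp), a response element core in 1 (Eef2) and TATAAA matches at any position in 4 (Adcyap1, Sprr1a, Gnb1 and Eef2). Among the 6 genes that fell, all with a window, a response element core was found in 1 (Sncb) and the other motifs in 0. Of all 33469 windows, 7.33% held the AP-1 site, 7.94% the response element core and 14.2% the letters TATAAA. A match describes the letters and is neither a binding site nor a cause.

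C3, the central complement protein, and Cd74, the invariant chain of MHC class II molecules, were the immune genes that rose. C3 was called Absent on the 3 saline arrays at 282, 319 and 368 and measured 626, 578 and 660 after transection (M29866_s_at). The groups did not overlap, and day 37 was as high as day 4. C3 rose at least 1.89-fold (log2 difference 0.92, SE 0.14; limma adjusted p = 0.0315), a bound in which a saline signal under the lowest Present signal of its array is raised to it. That lowest signal was at most 60.1, so no saline value was raised. The other probe set of C3 (X52477_at), Present on the saline arrays, rose by 0.95 (limma adjusted p = 0.0315). On the contralateral arrays of transection C3 stood at 699 and 666, as high as on the lesion side, and the control range was 245 to 1040. Transection minus saline was -0.24 when each lesion-side array was taken relative to its contralateral array on days 10 and 37. Cd74 had 262, 102.5 and 294 after saline with no Present call, and 364, 327 and 746 after transection with 1 Present call (X13044_g_at). It was higher by 1.10 on the log2 scale (SE 0.20, limma adjusted p = 0.0364), given without a fold since it was Present on 1 of the 6 arrays. The transection arrays lay within the control range of 230 to 2906 and the saline day 10 array below it. Cd74 turned sign with lesion-minus-contralateral differences (-0.0505) and with the actin ratio (-0.51), and its other probe sets differed by 1.51 and 0.83 without passing (limma adjusted p 0.0818 and 0.134). In whole tissue, more cells of a type and more RNA per cell cannot be told apart. The summed microglial markers given above moved with both genes, and their part in these rises was not tested.

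Among the remaining rises, those of the signalling genes and Eef2 were smaller. Plcd4, a phospholipase C that makes second messengers, had 357, 459 and 508 after saline and 542, 928 and 839 after transection, with no overlap, and rose 1.69-fold (SE of log2 0.14; limma adjusted p = 0.0358). Gnb1, a beta subunit of heterotrimeric G proteins, had 1311, 1378 and 1591 against 2175, 2063 and 2252, all 3 above the control maximum of 2061 (SE of log2 0.12; log2 difference 0.60; limma adjusted p = 0.0450). Its other probe sets differed by 0.57 and 0.40 and did not pass (limma adjusted p 0.110 and 0.114). Gnai2, an inhibitory alpha subunit, had overlapping groups, with 2135, 2324 and 3335 against 3101, 5038 and 4865 (log2 difference 0.73, SE 0.14; limma adjusted p = 0.0433), and its other probe sets differed by -0.15 and 0.09 (limma adjusted p 0.538 and 0.670). Eef2, which moves the ribosome along the message, also overlapped, with 2700, 3310 and 4911 against 4462, 4584 and 6793 (log2 difference 0.55, SE 0.11; limma adjusted p = 0.0493), and its 3 other probe sets differed by 0.51, 0.44 and 0.05 without passing (limma adjusted p 0.108, 0.241 and 0.862). For Gnai2 and Eef2 the probe sets of one gene therefore disagree. Eef2 had the opposite sign, -0.45, when each lesion-side array was taken relative to its contralateral array on days 10 and 37. The controls ranged from 451 to 775 for Plcd4, 1425 to 2061 for Gnb1, 2761 to 6782 for Gnai2 and 3302 to 8302.5 for Eef2. Saline day 4 lay under that range for each of these genes, and saline day 10 also for Gnb1 and Gnai2. The transection arrays of Gnai2 and Eef2 all lay inside it, and those of Plcd4 lay above it on days 10 and 37.

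Kctd13, an adaptor of a ubiquitin ligase, gave the largest difference among these genes, on 1 of its 3 probe sets. The signals of rc_AA859966_i_at were 137, 4419 and 624 after saline, the first and last called Absent, and 17489, 26505 and 14195 after transection. The control arrays ranged from 6107 to 25710. All 3 saline arrays lay below that range, and of the transection arrays the day 10 one lay just above it. Lysolecithin gave 13289 and 16457 on days 4 and 10 and 1006, called Absent, on day 37. The log2 difference was 4.63 (SE 0.82; limma adjusted p = 0.0358), while the other 2 probe sets differed by 0.20 and -0.14 (limma adjusted p 0.493 and 0.620).

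The genes that fell were neuronal in part. Ina encodes alpha-internexin, a neurofilament subunit. Its signals were 5692, 6617 and 7060 after saline and 3873, 3036 and 4464 after transection (rc_AA875659_s_at). All 3 transection arrays lay below the saline and the control arrays (4654 to 10472). Ina fell by 0.78 on the log2 scale (SE 0.13; limma adjusted p = 0.0338), and its other probe set, M73049_at, fell by 0.77 (limma adjusted p = 0.0338). On M73049_at the healthy control array gave 1756, below the transection arrays (3856 to 5949), and each contralateral array 6799 or more. Sncb, the presynaptic protein beta-synuclein, had 1705, 1734 and 1684 after saline, values within a narrow range, and 996, 870 and 1176 after transection. It fell by 0.75 (SE 0.15; limma adjusted p = 0.0490), with transection days 4 and 10 under the control minimum of 1082. Iqsec1, an exchange factor for the small GTPase Arf6, had 5076, 6044 and 5715 after saline and 3641, 3505 and 4106 after transection. The groups did not overlap and the gene fell by 0.58 (SE 0.11; limma adjusted p = 0.0457), beside 841 on the healthy control array and 4068 or more on each contralateral one.

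Matk, a tyrosine kinase that restrains Src-family kinases, was Present on the 3 saline arrays at 1307, 1075 and 1262 and on none after transection, at 695, 476 and 889. All 3 lay under the control minimum of 986. Saline was at least 1.80-fold higher (log2 difference -0.85, SE 0.15; limma adjusted p = 0.0358). No transection value lay under the lowest Present signal of its array, so none was raised and the bound equals the plain fold. Cited2, a co-regulator that binds CBP and p300, had 6982, 5589 and 5412 after saline and 4885, 3070 and 3863 after transection (rc_AI014091_at) and fell by 0.62 (SE 0.11; limma adjusted p = 0.0358). Of its other probe sets 1 was lower by a larger amount (-0.99; limma adjusted p = 0.0520) and 1 by a smaller one (-0.28; 0.459), and neither passed. Ndufb8, a subunit of complex I of the respiratory chain, had 11076, 7687 and 8638 after saline and 7857, 5384 and 5740 after transection (rc_AA851403_g_at). The groups overlapped through the saline day 10 array, and the log2 differences by day were close together (-0.49, -0.51 and -0.59). It fell by 0.53 (SE 0.10; limma adjusted p = 0.0433), while its other probe set differed by -0.42 (limma adjusted p = 0.0917).

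**Figure D2:**
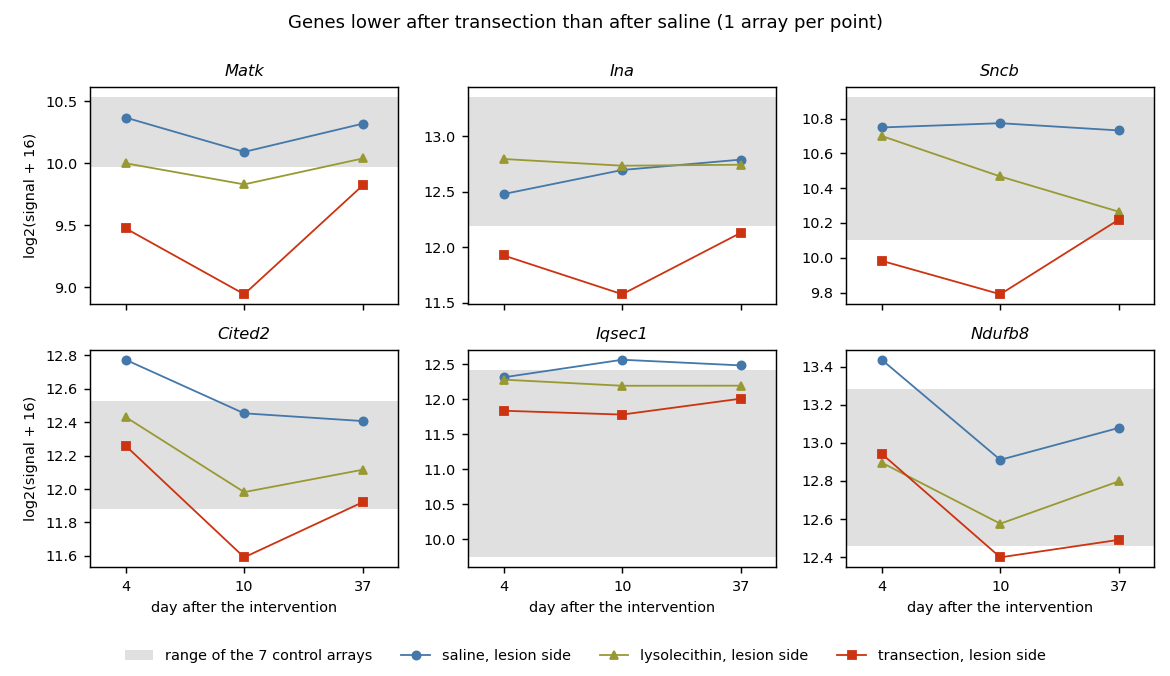
Levels as log2(signal + 16) of the 6 genes that fell, by day, for the lesion-side arrays after saline, lysolecithin and transection, 1 array per point, with days spaced equally and the range of the 7 control arrays in grey. For Ina, drawn on rc_AA875659_s_at, the 3 transection arrays (signals of 3036 to 4464) lie below the control arrays, which range from 4654 to 10472, and the lysolecithin arrays lie between 6796 and 7088.

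The days differed in size. Among the 16 genes that rose, the difference was largest on day 10 for 9, on day 4 for 6 and on day 37 for 1 (Avp), and it was smallest on day 37 for 11. Trh went from 2.71 on day 4 through 3.19 on day 10 to 0.95 on day 37 in log2 difference. Atf3 went from 2.69 and 3.05 to 0.36, Gadd45a from 2.21 and 2.61 to 0.30, and Jun from 1.53 and 1.49 to 0.38. C3 kept 1.11, 0.83 and 0.82, and Gnb1 0.72, 0.58 and 0.50. Of the 6 that fell, 5 differed most on day 10 and 4 least on day 37, with Ina at -0.55, -1.12 and -0.66. Over all tested probe sets the SD of the difference was 0.45 on day 4, 0.46 on day 10 and 0.35 on day 37. Days were not tested against each other, since each has 1 array per group.

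**Figure D3:**
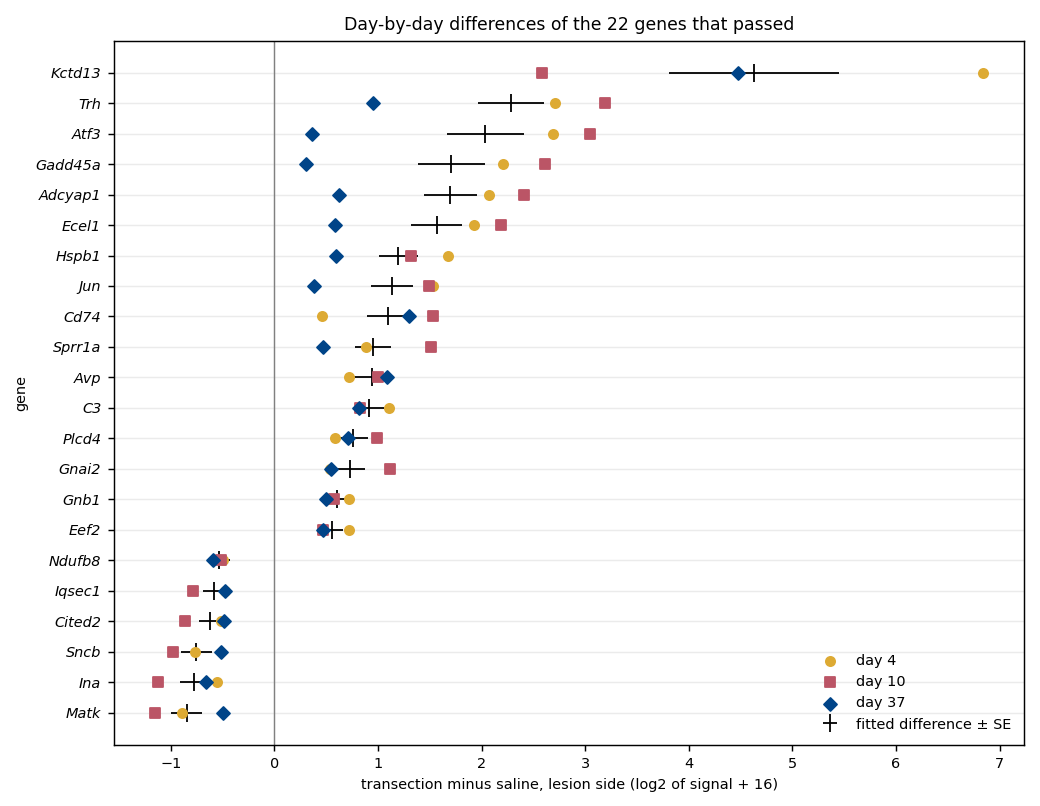
Log2 difference in signal, transection minus saline, on days 4, 10 and 37 for the genes that rose or fell, each point a pair of single arrays. Most rises are largest on day 4 or 10 and smallest on day 37, as Atf3 with 2.69, 3.05 and 0.36 shows.

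The control arrays place the 2 groups. Of the 16 rises, the transection arrays exceeded all 7 controls on all 3 days for Jun, Gadd45a and Gnb1, against 1.16% of all tested probe sets. The saline arrays lay under all 7 controls on all 3 days for Kctd13 and Avp, against 2.15% of all tested. By single day (4, 10 and 37), saline lay under all 7 controls for 8, 5 and 2 of the 16. Transection lay above them for 8, 10 and 4. Saline day 4 was the lowest of the 6 arrays for 12 of the 16. For these counts by day no share over all probe sets was taken. The 16 genes were picked by the contrast of the 2 groups, so the counts and shares test nothing. For 14 of the 16 the groups were apart, a pattern held by 7.93% of all tested probe sets, and for 5 of the 6 falls, against 7.18%, but the genes were picked by the same contrast and these shares test nothing. Among the falls, Ina on rc_AA875659_s_at (not on M73049_at) and Matk lay under all controls on 3 days, against 1.31% of all tested. None of the 6 had all saline arrays above the controls (1.02% of all tested). The contralateral array of transection day 10 was the highest of the 7 controls for 8 of the 16 rises, against 12% of all tested, and that of day 37 for 2, against 14.4%. It gave 1394 for Trh, where the contralateral array of day 37 gave 448, and for Atf3 481 and 292.

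Lists of genes for the cell types and pathways of this tissue were read against the same contrast, each gene by its brightest probe set. Their counts stand beside the shares of all tested probe sets: 0.544% rose and 0.181% fell, 9.09% were higher and 7.86% lower at an unadjusted p under 0.05, and a count near these shares says nothing about a list. Of 36 regeneration-associated genes on the array 21 were tested. Of these 6 rose (Ecel1, Jun, Atf3, Sprr1a, Gadd45a and Adcyap1) and 0 fell, 8 and 0 had an unadjusted limma p under 0.05, 18 were higher and 3 lower, and the median was 0.35 against 0.00 for all probe sets. The medians by day were 0.57, 0.42 and 0.29, and the summed signal was 20294 to 21339 after saline and 22323 to 37231 after transection. Gap43, the growth-cone protein, stood at 1397, 1320 and 1027 after saline and at 1962, 3641 and 1379 after transection. All 3 transection values and the saline day 4 value lay above the controls (679 to 1348), and the groups overlapped. The difference of 0.79 did not pass (limma adjusted p = 0.0897). Ret, a receptor for glial-derived trophic factors, differed by 0.45 (limma adjusted p = 0.134), while the growth-cone gene Basp1 and the adhesion molecules L1cam and Ncam1 had 0.02, -0.18 and 0.06. Of 19 immediate early genes, those that activity switches on within minutes, 2 rose (Jun and Atf3), 4 were higher and 3 lower at an unadjusted p under 0.05, and the median was 0.03. Fos, Egr1 and Arc had 0.03, -0.09 and -0.36.

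Of 20 neuropeptide and secretory granule genes 3 rose (Trh, Avp and Adcyap1) and 0 fell, 8 were higher and 1 lower at an unadjusted p under 0.05, and the median was 0.20, beside 9.09% and 7.86% of all tested. Calca, the CGRP precursor, had 0.86, Hcrt 0.46 and the granule protein Chgb -0.56, and none of these passed (limma adjusted p 0.183, 0.136 and 0.108). Of 13 genes of the p53 pathway and the integrated and endoplasmic reticulum stress responses 1 rose (Gadd45a), 6 were higher and 0 lower at an unadjusted p under 0.05, and the median was 0.33, with 0.53, 0.44 and 0.12 by day. Ddit3, the stress factor CHOP, had 782, 517 and 555 after saline and 2458, 2167 and 573 after transection, a difference of 1.24 (limma adjusted p = 0.0870) made on days 4 and 10. Ccng1, a p53 target, had 0.78, the phosphatase subunit Ppp1r15a 0.55 and the chaperone Hsp90b1 0.47, while Hspa5 had 0.17.

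Of the lists of the mature neuron, those for synaptic release, potassium channels and glutamate receptors had their lowest median on day 10. Beside the counts of this paragraph, 9.09% of all tested probe sets were higher and 7.86% lower at an unadjusted p under 0.05, and 0.181% fell. Of 37 synaptic release genes 1 fell (Sncb), 1 was higher and 8 lower at an unadjusted p under 0.05, and the median was -0.06 over the days and -0.37 on day 10. Sv2b and Rab3a of the synaptic vesicle differed by -0.60 and -0.56, Syp by -0.36 and Syt4 by 0.80, and none passed (limma adjusted p 0.0938, 0.165, 0.164 and 0.0897). Of 24 cytoskeletal genes 1 fell (Ina), 1 was higher and 3 lower at an unadjusted p under 0.05, and the median was -0.01. The other neurofilament genes Nefl, Nefm and Nefh had -0.35, -0.38 and -0.31 (limma adjusted p 0.166, 0.173 and 0.348), with Nefl at 12724, 13097 and 12003 after saline and 10424, 8670 and 10611 after transection, groups that did not overlap. Map1b, a microtubule protein of growing axons, was on the other side with 0.91 (limma adjusted p = 0.105). Of 12 potassium channel genes none passed with limma, 0 were higher and 4 lower at an unadjusted p under 0.05, and the median was -0.16, with -0.48 on day 10. Kcnc4, Kcnc1, Kcna1 and Kcnd2 had -0.54, -0.53, -0.46 and -0.48. Of 23 glutamate receptor genes none passed with limma, 2 were higher, near the share of all probe sets, and 4 lower at an unadjusted p under 0.05, Grin1 had 0.61 and Grm2 -0.69. Of 67 genes for kinases, phosphatases and G proteins 1 fell (Matk), 5 were higher, near the share of all probe sets, and 9 lower at an unadjusted p under 0.05, and Cdk5, a kinase of neurofilaments, had -0.59 (limma adjusted p = 0.0618).

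The immune lists and that of meninges and matrix had medians above 0. At an unadjusted p under 0.05 the shares over all tested probe sets were 9.09% higher and 7.86% lower. Of 15 microglial and macrophage genes none passed with limma, 7 were higher and 0 lower at an unadjusted p under 0.05, 14 were higher in all and the median was 0.34. Lgals3, galectin-3 of phagocytes, had 720, 524 and 509 after saline and 1440, 1477 and 915 after transection, a difference of 1.09 (limma adjusted p = 0.0897). Of 20 MHC and interferon genes none passed on the brightest probe set, 7 were higher and 0 lower at an unadjusted p under 0.05, and the median was 0.25. The summed signal of this list was 20990 to 23497 after saline, 25139 to 31255 after transection and 20212 to 35993 on the control arrays. Of 14 complement and acute-phase genes C3 rose, 4 were higher and 0 lower at an unadjusted p under 0.05, and the median was 0.21. Of 29 genes of meninges and matrix none passed with limma, 4 were higher, not far above the share of all probe sets, and 0 lower at an unadjusted p under 0.05, and the median was 0.16. In lysolecithin minus saline, which shares the saline arrays, the medians were 0.33 for microglia and macrophages and 0.34 for MHC and interferon. They were 0.35 for complement and acute phase and 0.25 for meninges and matrix.

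Of 23 astrocyte genes none passed with limma, 5 were higher and 0 lower at an unadjusted p under 0.05, and the median was 0.07, beside 9.09% and 7.86% of all tested. Gja1, the gap junction protein connexin 43, had 1.31, Aqp4, the water channel, 1.07, the glutamate transporter Slc1a2 0.62 and clusterin (Clu) 0.50 (limma adjusted p 0.0897, 0.110, 0.108 and 0.0897). The other glutamate transporter, Slc1a3, and glutamine synthetase (Glul) had 0.07 and -0.01. Aqp4 was 1328, 2028 and 603 after saline and 1911, 2966 and 2710 after transection, with the saline day 37 array under the control range of 1103 to 2341. Of 15 oligodendrocyte genes none passed with limma, 1 was higher and 0 lower at an unadjusted p under 0.05, and the median was 0.02, with Mbp, Mog and Mobp at 0.02, 0.05 and 0.02.

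The lists of energy metabolism had medians below 0. Their counts at an unadjusted p under 0.05 stand beside 9.09% higher and 7.86% lower among all tested probe sets. Of 50 respiratory chain genes none passed on the brightest probe set, 1 was higher and 20 lower at an unadjusted p under 0.05, 5 were higher and 45 lower in all, and the median was -0.22, with -0.13, -0.25 and -0.27 by day. For 12 of them all transection arrays lay under all saline arrays, as for 7.18% of all tested probe sets. Ndufb3, Ndufab1 and Ndufa8 of complex I had -0.53, -0.50 and -0.45 (limma adjusted p 0.140, 0.178 and 0.122). The summed signal was 302813 to 343036 after saline, 252275 to 309102 after transection and 255513 to 334747 on the control arrays, so transection overlapped the controls. Of 29 glycolysis and citric acid cycle genes none passed with limma, 1 was higher and 5 lower at an unadjusted p under 0.05, 24 were lower in all and the median was -0.19, with the aminotransferase Got2 at -0.48 (limma adjusted p = 0.0917). Of 23 genes for cholesterol and lipid synthesis none passed with limma, 0 were higher and 5 lower at an unadjusted p under 0.05, and the median was -0.10. Of 42 ribosome and translation genes none passed on the brightest probe set, 4 were higher, at the share of all probe sets, and 0 lower at an unadjusted p under 0.05, 36 were higher in all and the median was 0.10. In lysolecithin minus saline, which shares the saline arrays, the median was -0.20 for the respiratory chain and -0.10 for glycolysis and the citric acid cycle. It was -0.14 for cholesterol and lipid synthesis and 0.02 for ribosome and translation. The actin 3′/5′ ratio was lower after transection on each day, beside these lists as beside all others, and its part in the shifts of the lists was not tested.

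**Figure D4:**
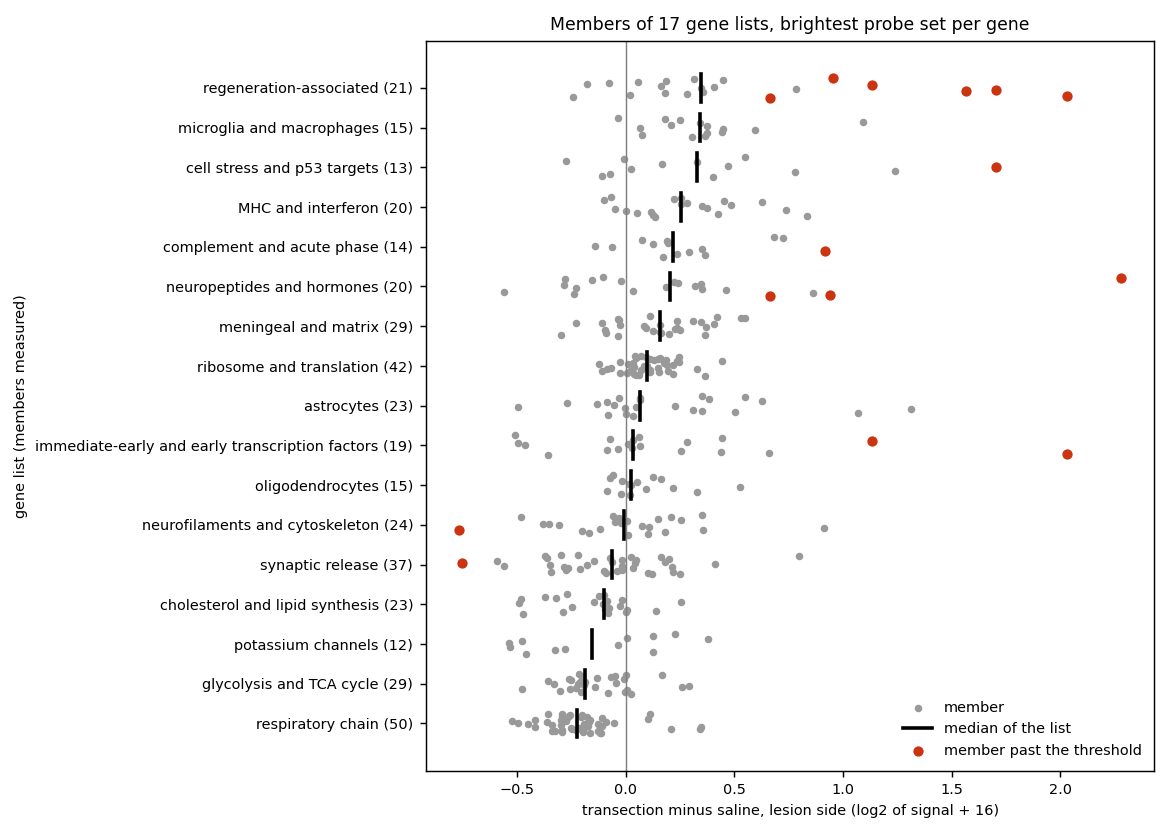
Log2 difference in signal, transection minus saline, over the 3 days for the tested genes of 17 lists, each point the brightest probe set of a gene, red where it passed the threshold, with a black bar at the list's median and points spread vertically for view only. The regeneration-associated genes have a median of 0.35 and the respiratory chain genes of -0.22.

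Beyond the genes that passed, 50 named genes had an adjusted p between 0.05 and 0.10 and the same sign on 3 days, 26 of them higher and 24 lower. Anxa2, a calcium- and membrane-binding annexin, had 360, 366 and 408 after saline and 933, 1517 and 440 after transection, a difference of 1.15 (limma adjusted p = 0.0897). Tmod1, which caps actin filaments, was Absent on the 3 saline arrays at 278, 376 and 445 and Present on days 4 and 10 after transection at 833 and 1340. All 3 transection arrays of Tmod1 lay above the controls (299 to 395), and the last of them, 454 on day 37, was Absent and close to saline. Slc12a5, the chloride exporter KCC2 of mature neurons, held 4755, 4719 and 4765 after saline, a narrow range, and 3288, 1925 and 3699 after transection, a difference of -0.73 (limma adjusted p = 0.0897). All 3 saline arrays of Slc12a5 lay above the control range of 3354 to 4706, and the transection day 37 array lay inside it. Rgs8, a regulator of G protein signalling, differed by -0.79 (limma adjusted p = 0.0520), with 480, 441 and 431 against 232, 216 and 323. Chn1, a GTPase-activating protein for Rac in neurons, had 6452, 6870 and 5730 after saline and 3428, 3331 and 5599 after transection, so its difference of -0.66 was made on days 4 and 10 (limma adjusted p = 0.0935). The mitochondrial creatine kinase Ckmt1 had -0.63 (limma adjusted p = 0.0897), with all 3 transection arrays below the controls (9300 to 11813). Its lysolecithin arrays, 7709 to 8620, also lay below the controls. Saline days 4 and 10, at 14817 and 12377, lay above them.

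Single days, which have no test, showed other extremes among probe sets Present on both arrays. On day 4 the highest were Trh (6.53-fold), Atf3 (6.47-fold), Gadd45a, Adcyap1 and Ecel1, and the lowest the initiation factor Eif2s3 (-1.84) and Prickle2 (-1.74), a planar polarity gene. On day 10 Gadd45a (9.69-fold on L32591mRNA_at), Trh (9.10-fold) and Atf3 (8.26-fold) were followed by Qpct, the enzyme that forms the pyroglutamate end of peptides such as thyrotropin-releasing hormone, at 6.19-fold. The 8 lowest on day 10 were the glutamate receptor genes Grm2 (-1.32) and Grik1 (-1.23), the transporter gene Slc12a5 (-1.29), the orexin receptor Hcrtr2 (-1.25), the glycine receptor subunit Glra2 (-1.24), Oxr1 (-1.19), the calcium release channel Itpr1 (-1.19) and the phosphatase Inpp4a (-1.18). On day 37 the list began with Aqp4 (4.41-fold), Cd74 (1.59 in log2 difference), the scaffold gene Dlg1 (2.79-fold), the myelin gene Mal (2.75-fold), C3, RT1-Da, Nfix and Avp, and the transferrin receptor Tfrc (-1.58), Map2k5 (-1.55) and Ppp1cb (-1.49) were lowest. Mal was 1464 on the saline day 37 array against 3834 to 4081 on the other 5, so 1 saline array set its value. That array also lay under the control range for Aqp4 (603 against 1103 to 2341), Dlg1 (185 against 363 to 502), Nfix (1034 against 1678 to 2903) and Avp (286 against 300 to 854). For Cd74, C3 and RT1-Da it lay inside the range.

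Detection calls gave no probe set that was Absent on all 3 saline arrays and Present on all 3 transection arrays. The opposite switch occurred for 12, all named, beside the lower share of Present calls on the transection arrays given above. The signal of the purinergic receptor P2rx2 was 356, 379 and 335 after saline and 266, 119 and 251.3 after transection. The log2 difference was -1.31 for Cyp26b1, a retinoic acid hydroxylase (limma adjusted p = 0.0897), and -0.92 for Ykt6, of the vesicle fusion machinery (0.160), and neither was Present on any lysolecithin or control array. Others changed call at about the same signal, with log2 differences of -0.02 for the nicotinic receptor subunit Chrna4, 0.05 for Creg1, 0.09 for the lipase Mgll and -0.11 for the ganglioside enzyme St3gal5. None of the 12 passed the limma test.

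Lysolecithin arrays were set beside these genes, and the saline arrays enter both differences, so the 2 sets of values are not independent. For Trh the lysolecithin signals were 2481, 1601 and 600 on days 4, 10 and 37, between saline and transection on each day. Atf3 had 766, 955 and 358, Adcyap1 1390, 1748 and 646, Ecel1 1341, 1533 and 628 and Jun 846, 830 and 601, likewise between the other groups. Gadd45a had 1381, 1376 and 877.5, between them on days 4 and 10 and just above transection on day 37. C3 had 613, 549 and 639, level with transection, on M29866_s_at, and 506, 431 and 398, below transection on each day, on X52477_at. Cd74 had 690, 475 and 856, above transection on each day, on X13044_g_at, and lay above it on each day on X14254cds_g_at too. On X13044_at Cd74 had 502, 690 and 598, above transection on days 4 and 10 and below it (909) on day 37. The difference of transection from lysolecithin, which tests whether the interventions act unequally and shares the transection arrays, passed for 0 of the 16 rises (limma adjusted p 0.166 to 0.916), with 10 at an unadjusted p under 0.05, beside 0.476% and 13.6% of all 4413 probe sets. Between lysolecithin and saline 7 of all probe sets passed (0.159%), and of the 16 these were C3 on M29866_s_at (limma adjusted p = 0.036; 0.104 on X52477_at) and Cd74 on X13044_g_at (0.006). For Cd74, X14254cds_g_at passed as well (limma adjusted p = 0.006) and X13044_at did not (0.076). Among the 6 falls the difference from lysolecithin passed for Ina, at -0.88 (limma adjusted p = 0.036) and, on M73049_at, -0.68 (0.048). Lysolecithin gave 7088, 6796 and 6838 for Ina, no lower than saline on days 4 and 10. No probe set passed in this test without the day term, the trend or the filter, nor without the lysolecithin day 4 or transection day 10 array (330 to 926 at an unadjusted p under 0.05), so the call of Ina ended there too. The other 5 falls had limma adjusted p of up to 0.570 in that test, 4 of them with an unadjusted p under 0.05.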

How the data were processed

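Per the labels' protocols, total RNA was extracted with Trizol and biotin-labelled RNA was made with an oligo-dT T7 primer. MAS5, its version not given, is the tool in the submitters' processing notes, and the design text says that the CEL files are lost. Per the file headers, each array's deposited table gives a signal, which is a linear intensity per probe set, a call of detection and its p-value; the authors scaled every array to a common trimmed mean, as the values show. A further deposited table of the series, with values that look like log2 for 7773 probe sets and made in a way not given in the sources used here, served as an alternative. Aligner and genome build do not apply.

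Signals were taken as log2(signal + 16). Those with 3 or more Present calls among the 16 arrays entered the test, 4413 in all, 3636 with 1 symbol (2713 genes). Symbols came from the platform annotation (6283 of 8799 probe sets with 1 symbol, 280 with several, 2236 with none), of which 6265 matched the reference gene table and none was updated. Intervention and day were the terms of the fit, over the 9 arrays of the lesion side (limma 3.58.1 in R 4.3.3, moderated statistics with intensity trend, Benjamini-Hochberg over 4413, threshold 0.05, 4 residual degrees of freedom), and the difference of transection from lysolecithin came from the same fit. The fit was tested on simulated data for transection minus saline alone, with independent spread and changes equal on all days. The setting differs from these data in that, so this test does not bear on effects that vary by day. Tables and plots were made with pandas 2.3.3, numpy 2.4.6 and matplotlib 3.10.9 under Python 3.11.15.

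The day in the labels pairs the arrays and is the block. Deviations from the group means of same-day arrays correlated at 0.256, 0.192 and 0.165 (days 4, 10 and 37) between saline and transection, at 0.0594, 0.0989 and 0.154 between saline and lysolecithin and at 0.291, 0.262 and 0.252 between transection and lysolecithin. The number of arrays limits the precision.

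The members, the gene lists and the tests were chosen with earlier results of these data known. The rule for names took every gene past the threshold with the same direction on 3 days, by its smallest p, with its other probe sets; up to 15 genes a direction with an adjusted p of 0.05 to 0.10; in each list up to 6 members by p and the extremes; the 8 highest and lowest of each day with a signal over 200; and genes with opposite detection calls. Some eligible genes are left unnamed, and further list members (among them Basp1, L1cam, Ncam1, Fos, Egr1, Hspa5, Calca, Slc1a3, Glul, Mbp, Mog and Mobp) were named for their known roles after values were seen. Promoter windows came from RefSeq. Alternatives are given in the closing section.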

Additional observations from a re-analysis of the deposited data

Results flagged for a closer look

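Ina, the gene for the neurofilament subunit alpha-internexin, differed between the interventions by the test of the difference itself. Transection was lower than lysolecithin by a log2 difference of -0.88 (limma adjusted p = 0.036), with 3873, 3036 and 4464 on days 4, 10 and 37 after transection and 7088, 6796 and 6838 after lysolecithin. The call ended without the day term, the intensity trend or the filter, and without the lysolecithin day 4 or the transection day 10 array, where no probe set passed with limma (330 to 926 at an unadjusted p under 0.05). The saline arrays cancel in this difference. No outlier was looked for, since each group has 3 arrays.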

How the results depend on the processing

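Both counts moved with the fit. The 32 probe sets that passed between transection and saline became 0 without the day term, the trend or the filter on calls and with lesion-minus-contralateral differences (571, 697, 1099 and 158 at an unadjusted limma p under 0.05), 18 with 15 arrays of both sides, 11 with the actin ratio as a covariate and 4 with the 6 transection and saline arrays alone. Without 1 array the count ranged from 0 to 56. Of 2 alternatives added after seeing the data, days 10 and 37 alone gave 0 and days 4 and 10 alone 75. Quantile normalization gave 23 (15 higher), median centring 30 (20 higher), and the other settings 24 to 35. The 21 that passed between transection and lysolecithin became 0 in the same first 3 settings (414, 571 and 926 at an unadjusted p under 0.05), 9 with a pseudocount of 1, 1 with 15 arrays, 10 with the actin ratio, 6 with the series value table, 0 on days 10 and 37 alone, 8 on days 4 and 10 alone and 0 to 31 without 1 array. The replicate block is the day: without it 0 passed in each comparison. The cause of these changes was not tested, except that fewer arrays leave fewer degrees of freedom.

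Of the 22 named genes, all kept their call with a pseudocount of 1 or 64 and with the filter on lesion-side arrays, 14 with quantile normalization and 0 with the actin ratio, where Trh, Atf3, Gadd45a and Jun differed by more than before (3.44, 4.33, 3.12 and 2.33) and Plcd4 and Gnai2 by less (0.23 and 0.06). With lesion-minus-contralateral differences, which drop day 4, the sign turned for C3 (-0.24), Hspb1 (-0.41), Cd74 (-0.0505) and Eef2 (-0.45), and with the actin ratio for Cd74 (-0.51) and Avp (-0.0715). Trh kept its call in 14 of 25 settings and Ndufb8, Gnb1 and Eef2 in 4 each. Absent or Marginal calls limit C3 (on M29866_s_at), Cd74, Matk and Tmod1.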

Other observations

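Among the probe sets without a symbol, 3 passed the limma test between transection and saline. AF028784cds#1_s_at and rc_AI176456_at were higher after transection, each by 0.64 on the log2 scale, and rc_AA800456_at was lower, with a log2 difference of -0.84.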
